A study of Mus musculus with 54 samples.

Results

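Integrins were represented by 10 subunit genes, chosen by symbol from the 25149 genes of the deposited count and TPM tables. They were the alpha subunits Itga1, Itga2, Itga3, Itga5, Itga6, Itga9 and Itgav and the beta subunits Itgb1, Itgb3 and Itgb5. A further 17 integrin subunit genes in the same tables served for comparison. The tables hold bulk RNA-seq (Smart-Seq2) of single sides of mouse ovarian follicles, in 54 libraries. Follicles of CD-1 mice aged 14 to 16 days were grown in alginate for 8 days and then kept for 12 h in medium with fetal bovine serum, EGF and recombinant FSH, with or without hCG, an analog of luteinizing hormone. Without hCG, no follicle had ruptured, and 15 putative unruptured and 14 putative ruptured sides were cut apart by their morphology. Post-hCG, 12 unruptured and 13 ruptured sides were collected. The tissue label reads cumulus-oocyte complex, but by the study's methods these complexes were removed and follicle sides sequenced. Which sides came from the same follicle or animal is not given, so p-values measure the spread between these libraries, which may be partly technical.

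Integrins are cell surface receptors made of an alpha and a beta subunit that link the extracellular matrix to the actin cytoskeleton. The pair of subunits sets the ligand: alpha1 and alpha2 with beta1 bind collagen, alpha3 and alpha6 bind laminin, alpha5 with beta1 binds fibronectin, and alphav with beta3 or beta5 binds vitronectin and osteopontin. In the ovary, granulosa cells rest on a laminin-rich basement membrane that separates them from the collagen-rich theca, and this boundary is remodeled around ovulation and luteinization.

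Totals ran from 1497138 to 2834794 counts per library, and no library repeated another within sampling noise (lowest chi-square per gene 4.43). Granulosa markers, 8 genes, summed to 860.6 TPM or more in every library. The oocyte markers had medians of 0.2 TPM or less in every group and were highest in putative unruptured replicate 1, at 132.6 TPM. Without that library no call of a member changed between the sides without hCG, and Itgb1 passed the test between media on the unruptured side (FDR 0.0316). Theca and stroma markers, 8 genes, had median sums of 530.8 TPM (29.2 to 2784) on the putative unruptured side and 35.4 TPM (4.12 to 568.3) on the putative ruptured side. Post-hCG, these medians were 345.1 TPM (72.6 to 1333) on the unruptured side and 4.52 TPM (1.1 to 52.95) on the ruptured side, where the theca enzyme Cyp17a1 was at 0 in every library. Sums of the 8 granulosa markers had medians of 4057 TPM on the putative unruptured side, 13070 TPM on the putative ruptured side, 1551 TPM on the unruptured side and 1284 TPM on the ruptured side. Single granulosa markers did not all follow these sums in the edgeR tests given below. Of 4 tested post-hCG, 1 was higher and 0 lower on the ruptured side (10% and 11.3% of all genes). Of 7 tested between media on the unruptured side, 2 were higher and 5 lower post-hCG (25.4% and 27.7%). In bulk samples, fewer cells of a type and less RNA per cell cannot be told apart, and the part of these markers in the integrin differences was not tested. The labels also carry a code such as a plate well: libraries without hCG have the row letters F, G or H and libraries post-hCG B, C or D, so row and medium cannot be told apart. Both sides share only row G without hCG (5 and 5 libraries) and row C post-hCG (4 unruptured and 5 ruptured).

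The promoters of Itga5 and Itgb5, which moved in opposite directions with hCG, and of Itga2, which moved on the ruptured side, are shown to set the members' regulatory sequence beside their values. RefSeq held promoters for 8 of the 10 members on GRCm38.p6, with none for Itga6 and Itgb3. The windows span the 250 bases before the annotated start, written 5′ to 3′ on the gene's strand, with matches to the GC box GGGCGG on either strand in capitals. They lie at chr15:103366792-103367041 (minus strand) for Itga5, chr16:33829415-33829664 (plus strand) for Itgb5 and chr13:114932101-114932350 (minus strand) for Itga2.
Itga5: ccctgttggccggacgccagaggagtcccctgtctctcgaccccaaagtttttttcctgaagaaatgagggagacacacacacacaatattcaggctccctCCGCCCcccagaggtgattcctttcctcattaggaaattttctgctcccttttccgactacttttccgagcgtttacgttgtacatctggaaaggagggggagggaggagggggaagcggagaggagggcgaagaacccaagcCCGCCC
Itgb5: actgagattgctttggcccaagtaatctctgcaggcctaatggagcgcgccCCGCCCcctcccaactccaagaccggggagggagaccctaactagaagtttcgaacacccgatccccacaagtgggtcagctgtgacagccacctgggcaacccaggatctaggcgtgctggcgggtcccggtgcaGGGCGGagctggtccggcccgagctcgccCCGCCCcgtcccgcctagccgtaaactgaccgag
Itga2: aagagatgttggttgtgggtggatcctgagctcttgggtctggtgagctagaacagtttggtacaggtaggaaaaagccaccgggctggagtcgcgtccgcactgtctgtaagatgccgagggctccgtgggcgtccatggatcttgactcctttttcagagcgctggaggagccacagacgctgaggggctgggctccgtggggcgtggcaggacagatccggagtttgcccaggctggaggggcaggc
The Itga5 window held 2 GC boxes, the Itgb5 window 3 and the Itga2 window 0, and 32.7% of all 32851 promoters held at least 1. None of the 3 windows held the cyclic AMP response element core TGACG (17.8% of all promoters), the AP-1 motif TGANTCA (6.75%), the NR5A motif AAGGTCA (4.08%), the TEAD motif GGAATG (12.6%) or the RUNX motif TGTGGT (14.0%). Matches were sought on both strands, and a match describes these letters only. Among the 9 windows of the members, TGACG stood in those of Itga9 and Itgb1, GGAATG in that of Itgb1 and TGTGGT in an Itga3 window. TGANTCA and AAGGTCA stood in none. The Itga9 window (chr9:118711442-118711691) and this Itga3 window (chr11:95069199-95069448) lie inside the gene spans given below, not at the start of those spans.

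Levels are given first as TPM, which is scaled per transcript length so that genes can be compared. TPM for a like count varied between libraries. Putative unruptured replicates 6 and 13 both had 124 counts of Itgav, at 4.72 and 12.89 TPM, in a group with totals of 1507032 to 2657098. The cause was not tested, and the orders, shares and ratios in TPM below carry this variation. Itgb1 was the most abundant member in all 54 libraries, and Itga5 had the highest median among the alpha subunits in every group. On the putative unruptured side the order of the medians was Itgb1 (172.7 TPM), Itga5 (11.5), Itga6 (8.43), Itgav (5.91), Itga3 (3.92), Itga2 (3.39), Itgb5 (2.71), Itga9 (2.05), Itgb3 (0.79) and Itga1 (0.72). The neighbors Itga3 and Itga2 could not be ordered there, since Itga3 was higher in 8 of 15 libraries, and the same held for Itga2 over Itgb5 and Itgb5 over Itga9, each in 9 of 15. On the ruptured side post-hCG the order was Itgb1 (121.3 TPM), Itga5 (28.7), Itgav (6.52), Itgb3 (4.24), Itga2 (3.86), Itga3 (3.38), Itgb5 (1.33), Itga9 (0.68), Itga6 (0.66) and Itga1 (0.2). There Itga2 and Itga3 could not be ordered, since Itga2 was higher in 5 of 13 libraries, nor could Itga9 and Itga6, with Itga9 higher in 6 of 13. By median, Itga6 stood 3rd of the members on the putative unruptured side and shared the 8th and 9th places with Itga9 on the ruptured side, while Itgb3 stood 9th and 4th. On the ruptured side Itgb3 lay above the next member, Itga2, in 9 of 13 libraries only.

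**Figure D1:**
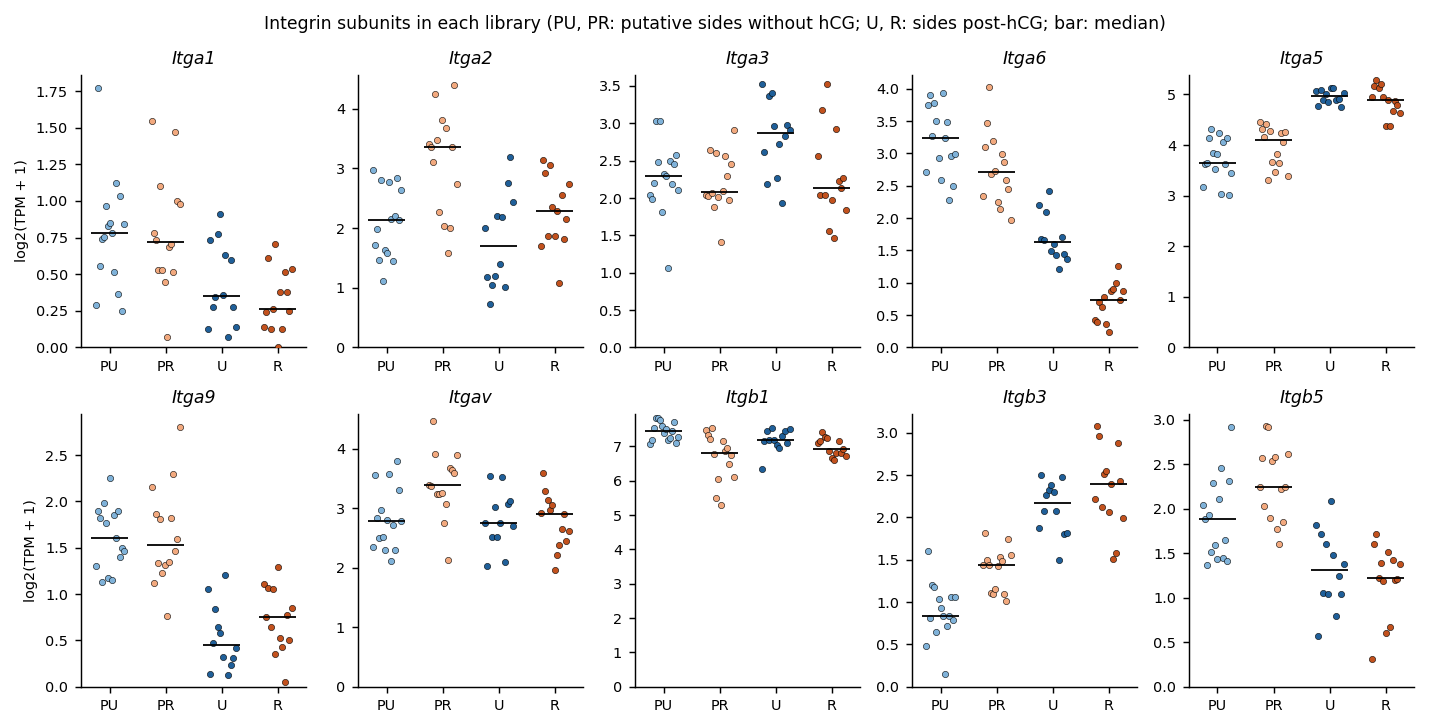
Each point is a library and each bar the median of its group, on the scale log2(TPM + 1), for the putative unruptured (PU, n = 15) and putative ruptured (PR, n = 14) sides without hCG and the unruptured (U, n = 12) and ruptured (R, n = 13) sides post-hCG. Itga5 and Itgb3 lie higher and Itga6, Itga9 and Itgb5 lower post-hCG, and Itgb1 spreads most among the putative ruptured sides, from 38.3 to 186.1 TPM.

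Summed over the 7 alpha members, transcript levels differed little in their medians, from 40.1 TPM on the putative unruptured side to 50.2 TPM on the unruptured side post-hCG, with ranges that overlapped among all groups. The composition of that sum differed more. Itga5 made up a median of 33.5% of it on the putative unruptured side (22.9% to 40.9% over libraries) and 32.3% on the putative ruptured side (20.7% to 40.4%). Post-hCG its share was 60.0% on the unruptured side (51.0% to 76.9%) and 65.4% on the ruptured side (57.5% to 72.6%), with no library post-hCG below any library without hCG. Itga6 took a median of 23.9% in putative unruptured and 13.6% in putative ruptured sides, and of 4.28% in unruptured and 1.13% in ruptured sides post-hCG. Among the 3 beta members, Itgb1 held a median of 95.6% to 98.2% of the summed TPM in every group.

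**Figure D2:**
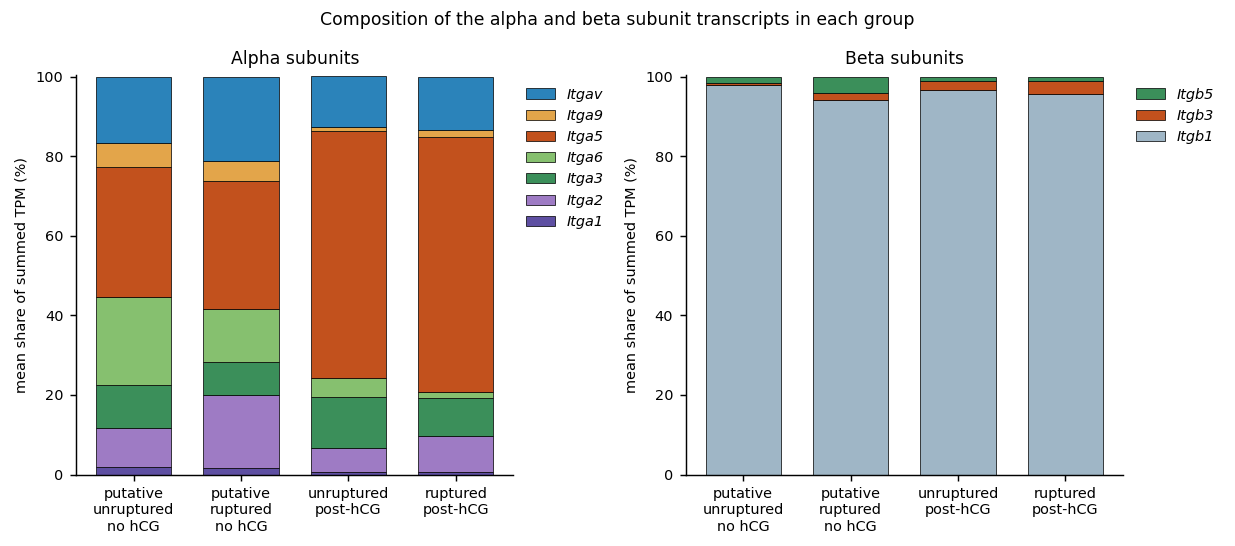
Bars stack the mean share, in percent, of each subunit in the summed TPM of the 7 alpha members (left) and of the 3 beta members (right), for the 4 groups. The Itga5 mean share is 32.6% and 32.2% without hCG and 62.1% and 64.1% post-hCG, and Itgb1 fills most of each beta bar.

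The comparisons of sides asked where integrin transcripts differ between the region that ruptures and the rest of the wall. Counts were tested with edgeR after TMM scaling, and a positive log2 fold change means higher on the (putative) ruptured side. Without hCG, all 10 members passed the filter on low counts. On the putative ruptured side 3 were higher (Itga2, Itgav and Itgb3), where 8.84% of the 9063 genes tested were called higher, and 1 was lower (Itgb1), where 8.96% were called lower. The median log2 fold change of the members was 0.24, against -0.01 over all genes tested. Post-hCG, 8 of the 10 members passed the filter, and 1 was called higher (Itgb3; 10% of the 8585 genes tested) and 1 lower (Itga6; 11.3%). There the median over the 8 members was 0.13, against 0.01 over all genes tested.

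The comparisons of media asked how each side differed after hCG, and a positive value means higher post-hCG. On the unruptured side all 10 members passed the filter, and 4 rose (Itgb3, Itga5, Itga3 and Itgav), where 25.4% of 9320 genes tested were called higher, and 4 fell (Itga9, Itga6, Itga1 and Itgb5), where 27.7% were called lower. On the ruptured side 9 passed, and 3 rose (Itgb3, Itga5 and Itgb1), where 29.7% of 8531 genes tested were called higher, and 4 fell (Itga6, Itga9, Itgb5 and Itga2), where 30.4% were called lower. The medians over the members were -0.28 and -0.13 in these comparisons, against -0.03 and -0.001 over all genes tested. Of the 10 members, 1 had TPM ranges that did not overlap between the media on the unruptured side (Itga5; 5.27% of genes tested). On the ruptured side 1 member had such ranges (Itga6; 7.77%). This separation depended on the measure. For counts scaled by library totals (CPM), the ranges of Itga5, Itga6 and Itga9 did not overlap on the unruptured side. Those of Itga5, Itga6, Itga9 and Itgb5 did not overlap on the ruptured side. Shares of all genes were computed for TPM only. The comparisons share groups of libraries, so each is given by its own values. Scaling by library totals alone moved the median log2 fold change of all genes to -0.06 and -0.14 between sides without and with hCG, -0.25 and -0.33 between media on the unruptured and ruptured sides, and -0.11 for the interaction. A member whose call or direction changed with that scaling, or with limma on log2(TPM + 1), is named as such beside its value.

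**Figure D3:**
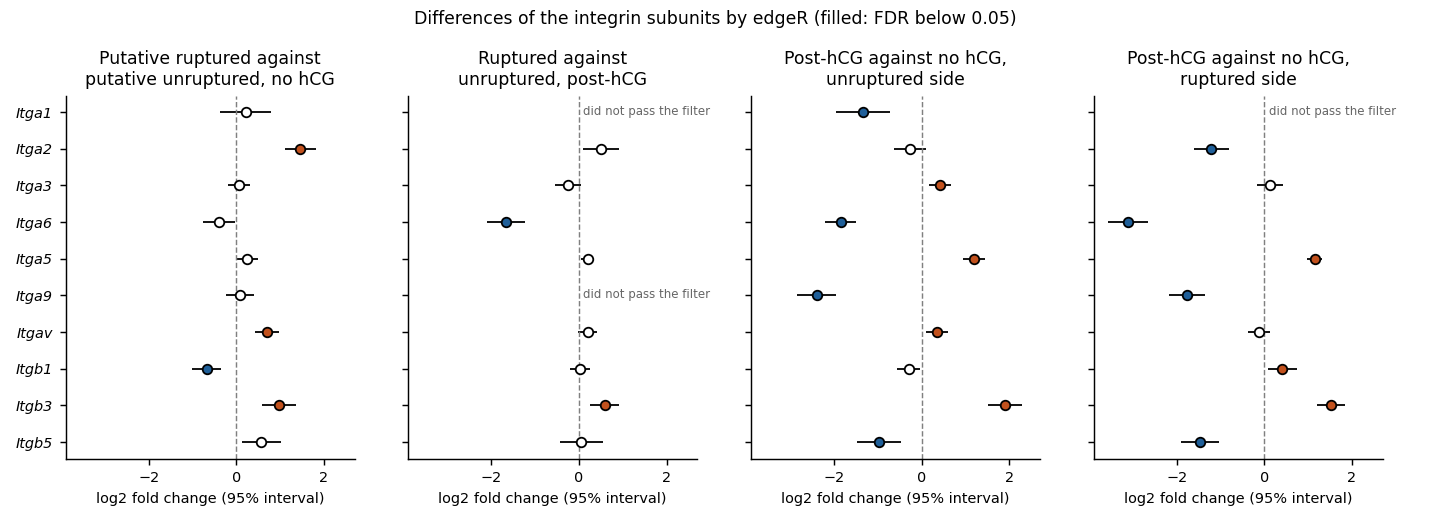
Points are log2 fold changes from edgeR and lines their 95% intervals, for the 4 comparisons, with filled points for an FDR below 0.05 (orange higher, blue lower). Itgb3 is higher in all 4 panels, and Itga6 has the lowest values post-hCG, -1.67 between sides and -3.11 between media on the ruptured side.

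Among the collagen receptors, Itga2 (chr13:114833081-114932100, minus strand) stood out on the putative ruptured side. Its level was 3.39 TPM on the putative unruptured side (1.17 to 6.87, n = 15) and 9.27 TPM on the putative ruptured side (2.0 to 19.96, n = 14). The ranges overlapped, and 9 of 14 putative ruptured sides lay above every putative unruptured side. The difference was 2.76-fold (log2 fold change 1.46 ± 0.18 SE, edgeR FDR 1.12e-06), with libraries of row G alone at 1.55 ± 0.21 (FDR 0.0435).
Post-hCG, Itga2 was at 2.32 TPM on the unruptured side (0.65 to 8.15, n = 12) and 3.86 TPM on the ruptured side (1.12 to 7.79, n = 13), with overlapping ranges. The log2 fold change of 0.50 ± 0.20 did not pass the test (FDR 0.0662). In row C alone its sign turned (-0.18 ± 0.26, FDR 0.747), and 5 of 25 refits without a single library put it past the threshold. Between media, Itga2 fell 2.32-fold on the ruptured side (-1.21 ± 0.19, FDR 2.28e-06), where all 13 post-hCG libraries lay below the median of the putative ruptured side. For unruptured sides the difference between media was -0.26 ± 0.18 (FDR 0.224, 95% interval -0.63 to 0.10). Library totals alone gave -0.48 there (FDR 0.0271), and without unruptured post-hCG replicate 11 the FDR was 0.0317.

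Itga1, the other collagen-binding alpha subunit, lies next to Itga2 on the same strand, at chr13:114953096-115101964, with 20995 bases between them. It was the least abundant member, at medians of 0.72 and 0.645 TPM on the putative unruptured and putative ruptured sides and of 0.275 and 0.2 TPM post-hCG. Between the sides without hCG the log2 fold change was 0.22 ± 0.28 (FDR 0.663). On the unruptured side it fell 2.54-fold post-hCG (-1.34 ± 0.30, FDR 0.000341), having passed the filter through the libraries without hCG, of which 12 of 15 lay over the filter's cutoff against 1 of 12 post-hCG. It did not pass the filter in the sides post-hCG or in the media on the ruptured side. Without the filter, those differences were 0.13 ± 0.36 (FDR 0.866) and -1.41 ± 0.33 (FDR 0.00071). In 14 of 15 putative unruptured sides and in every library of the other groups Itga2 had more TPM than Itga1. Exons of the annotated gene Gm49395 cover 3.68% of the exonic bases of Itga1 on the same strand, and reads there cannot be assigned from the tables.

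Among the laminin receptors, Itga6 (chr2:71745616-71858416, plus strand) had the widest fold range between group medians among the members. It was at 8.43 TPM on the putative unruptured side (3.86 to 14.34) and 5.54 TPM on the putative ruptured side (2.93 to 15.35). These ranges overlapped and the log2 fold change of -0.40 ± 0.18 did not pass the test (FDR 0.122). Without putative ruptured replicate 4 the value was -0.53 and passed (FDR 0.0201), and in row G alone the sign turned (0.23 ± 0.27, FDR 0.834).
Post-hCG, Itga6 was at 2.10 TPM on the unruptured side (1.33 to 4.36) and 0.66 TPM on the ruptured side (0.18 to 1.39). All 13 ruptured sides were below the median of the unruptured sides in TPM, and 12 were below every unruptured side. In CPM the ranges of these sides did not overlap. Itga6 was 3.18-fold lower on the ruptured side (-1.67 ± 0.21, FDR 7.83e-07), and row C alone gave -1.57 ± 0.31 (FDR 0.0037). It passed the filter there through the unruptured side, with 12 of 12 libraries over the cutoff against 3 of 13.
Between media, Itga6 fell 3.61-fold on the unruptured side (-1.85 ± 0.17, FDR 1.29e-10) and 8.66-fold on the ruptured side (-3.11 ± 0.23, FDR 1.31e-13). On the ruptured side the groups did not overlap in TPM, and it passed the filter through the libraries without hCG, 14 of 14 against 1 of 13. Theca and stroma marker sums were also lower on the ruptured than on the unruptured side post-hCG, as given above, and their part in the Itga6 difference was not tested.

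Itga3 (chr11:95044474-95076801, minus strand), whose product with beta1 also binds laminins, moved less. Its medians were 3.92 TPM in putative unruptured and 3.24 TPM in putative ruptured sides, and 6.32 TPM in unruptured and 3.38 TPM in ruptured sides post-hCG. Neither side comparison passed the test, with log2 fold changes of 0.06 ± 0.12 without hCG (FDR 0.777, 95% interval -0.18 to 0.31) and -0.25 ± 0.14 post-hCG (FDR 0.24, -0.54 to 0.05). Without hCG its sign turned in row G alone (-0.093) and on log2(TPM + 1) (-0.06). On the unruptured side it rose 1.34-fold post-hCG (0.42 ± 0.12, FDR 0.00423). The call did not hold with library totals alone (0.21, FDR 0.202). On the ruptured side the difference was 0.12 ± 0.14 (FDR 0.485), and its sign turned with library totals alone (-0.20, FDR 0.266).

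Itga5 (chr15:103344286-103366763, minus strand) encodes the alpha subunit of the main fibronectin receptor. It was at 11.5 TPM on the putative unruptured side (7.11 to 18.9) and 16.3 TPM on the putative ruptured side (8.95 to 21.09), and at 30.1 TPM on the unruptured side (25.95 to 33.86) and 28.7 TPM on the ruptured side post-hCG (19.78 to 37.87). Every unruptured side post-hCG was above every putative unruptured side, and 11 of 13 ruptured sides were above every putative ruptured side. Itga5 rose 2.30-fold on the unruptured side (log2 fold change 1.20 ± 0.12, FDR 6.44e-10) and 2.22-fold on the ruptured side (1.15 ± 0.08, FDR 1.46e-13). The 95% interval of the difference between these responses ran from -0.35 to 0.24, around -0.06 ± 0.15 (FDR 0.871).
Between sides, Itga5 did not pass the test without hCG (0.26 ± 0.12, FDR 0.151) or post-hCG (0.20 ± 0.07, FDR 0.0523). The second value lay near the threshold. DESeq2 put its FDR at 0.0269, and 6 of 25 refits without a single library called it. On log2(TPM + 1) its sign turned (-0.09, FDR 0.567). Row G alone gave 0.27 ± 0.20 without hCG (FDR 0.721), and row C alone 0.33 ± 0.14 post-hCG (FDR 0.17). Ruptured sides post-hCG differed by row letter, with 30.04 to 37.87 TPM in row C (n = 5) and 19.78 to 29.96 TPM in row D (n = 8).

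Itga9 (chr9:118606690-118901003, plus strand) encodes an alpha subunit that pairs with beta1 and binds tenascin and osteopontin. Its levels were 2.05 TPM on the putative unruptured side (1.19 to 3.76), 1.89 TPM on the putative ruptured side (0.7 to 6.0), 0.365 TPM on the unruptured side post-hCG (0.09 to 1.31) and 0.68 TPM on the ruptured side post-hCG (0.04 to 1.44). It fell 5.26-fold on the unruptured side (-2.40 ± 0.22, FDR 7.66e-11) and 3.41-fold on the ruptured side (-1.77 ± 0.20, FDR 2.91e-09), where it had passed the filter through all 15 and all 14 libraries without hCG, against 4 of 12 and 6 of 13 post-hCG. The sides without hCG differed by 0.08 ± 0.16 (FDR 0.785), and the sign turned in row G alone (-0.09). Post-hCG it did not pass the filter between sides. Without the filter the difference was 0.70 ± 0.28 (FDR 0.107), while within row C, where it passed, it was 1.66 ± 0.37 (FDR 0.00892), with 0.56 to 1.15 TPM on the ruptured side and 0.09 to 0.34 TPM on the unruptured side. It passed the filter in row C through the ruptured sides, where it was high. In the other rows the order was reversed, with medians of 0.43 TPM in the 8 ruptured sides of row D and 0.525 TPM in the 8 unruptured sides of row B.

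Itgav (chr2:83724397-83806916, plus strand) encodes the common alpha subunit of the vitronectin and osteopontin receptors. It was at 5.91 TPM on the putative unruptured side (3.35 to 12.89) and 9.45 TPM on the putative ruptured side (3.4 to 21.08), where 12 of 14 libraries exceeded the median of the putative unruptured side. The difference was 1.63-fold (0.70 ± 0.13, FDR 0.000338), and row G alone gave 0.70 ± 0.16 (FDR 0.148) in a comparison that called 3 genes in all. Post-hCG, the sides stood at 5.73 TPM (3.09 to 10.61) and 6.52 TPM (2.92 to 11.02), and the log2 fold change of 0.20 ± 0.11 did not pass the test (FDR 0.183), with -0.02 on log2(TPM + 1).
Between media, Itgav rose 1.28-fold on the unruptured side (0.36 ± 0.12, FDR 0.0166), although its median TPM was no higher there. With library totals alone this call was lost (0.13, FDR 0.472), and on log2(TPM + 1) the sign turned (-0.03, FDR 0.92). On the ruptured side the difference of -0.13 ± 0.12 did not pass (FDR 0.364), whereas library totals gave -0.45 (FDR 0.00596) and log2(TPM + 1) gave -0.62 (FDR 0.00654). Exons of Gm13684 on the opposite strand cover 5.9% of the exonic bases of Itgav.

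Itgb3 (chr11:104608000-104670476, plus strand), the beta subunit of the alphav beta3 receptor, was the member higher in all 4 comparisons. It was at 0.79 TPM on the putative unruptured side (0.11 to 2.05) and 1.71 TPM on the putative ruptured side (1.02 to 2.52), and all 14 putative ruptured sides lay above the median of the putative unruptured side. The difference was 1.97-fold (0.98 ± 0.20, FDR 0.000567), with 0.92 ± 0.23 in row G alone (FDR 0.222). Post-hCG, it was at 3.52 TPM on the unruptured side (1.83 to 4.66) and 4.24 TPM on the ruptured side (1.85 to 7.44), with 5 of 13 ruptured sides above every unruptured side. That difference on the log2 scale was 0.58 (SE 0.16, FDR 0.00695), and 0.95 ± 0.22 in row C alone (FDR 0.0133). The call was lost with library totals alone (0.45, FDR 0.053) and on log2(TPM + 1) (0.22, FDR 0.338).
Between media, Itgb3 rose 3.76-fold on the unruptured side (1.91 ± 0.19, FDR 4.48e-10) and 2.88-fold on the ruptured side (1.52 ± 0.16, FDR 6.67e-10). Itgb3 pairs with Itga2b on platelets, and of the 5 platelet markers, Itga2b among them, Ppbp was at 0 in every library. Their summed level had medians (and highest values) of 1.3 (7.31), 0.575 (3.84), 1.33 (7.77) and 0.22 (1.68) TPM on the putative unruptured, putative ruptured, unruptured and ruptured sides, and their part in the Itgb3 differences was not tested.

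Itgb5 (chr16:33829665-33949338, plus strand) encodes the other beta partner of alphav studied here. It was at 2.71 TPM on the putative unruptured side (1.58 to 6.58) and 3.75 TPM on the putative ruptured side (2.05 to 6.66), with 11 of 14 putative ruptured sides above the median of the putative unruptured side. The log2 fold change of 0.57 ± 0.22 did not pass the test (FDR 0.07). Without putative unruptured replicate 10 or 15 it did, and the lowest FDR of these refits was 0.0071. Post-hCG, the sides stood at 1.49 TPM (0.48 to 3.26) and 1.33 TPM (0.24 to 2.29), and the difference of 0.06 ± 0.24 did not pass (FDR 0.906, 95% interval -0.43 to 0.54). Its sign turned with library totals alone (-0.09) and on log2(TPM + 1) (-0.13). Between media, Itgb5 fell 1.97-fold on the unruptured side (-0.97 ± 0.25, FDR 0.00155) and 2.78-fold on the ruptured side (-1.48 ± 0.21, FDR 3.61e-07), where all 13 libraries lay below the median of the putative ruptured side.

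Within single libraries the ratio of Itgb3 to Itgb5 and that of Itga5 to Itga6 separated the media. They were chosen with the values of these subunits known and are given without a test. Each divides a member that rose with hCG by a member that fell. The other ratios computed, Itgb1 to Itgb3, Itga2 to Itga1 and Itgav to Itga5, overlapped between media. The ratio of Itgb3 to Itgb5 TPM had a median of 0.376 on the putative unruptured side (0.0245 to 0.757) and 0.402 on the putative ruptured side (0.175 to 0.873), and of 2.15 on the unruptured side (1.05 to 9.71) and 3.14 on the ruptured side (1.18 to 15.25) post-hCG. Itgb5 was thus the higher of the pair in all 29 libraries without hCG and Itgb3 in all 25 post-hCG. The ratio of Itga5 to Itga6 had medians of 1.48 (0.823 to 2.95), 2.59 (1.32 to 5.20), 15.1 (7.16 to 21.4) and 50.7 (20.2 to 109.9) in the same order of groups, with no overlap between media.

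**Figure D4:**
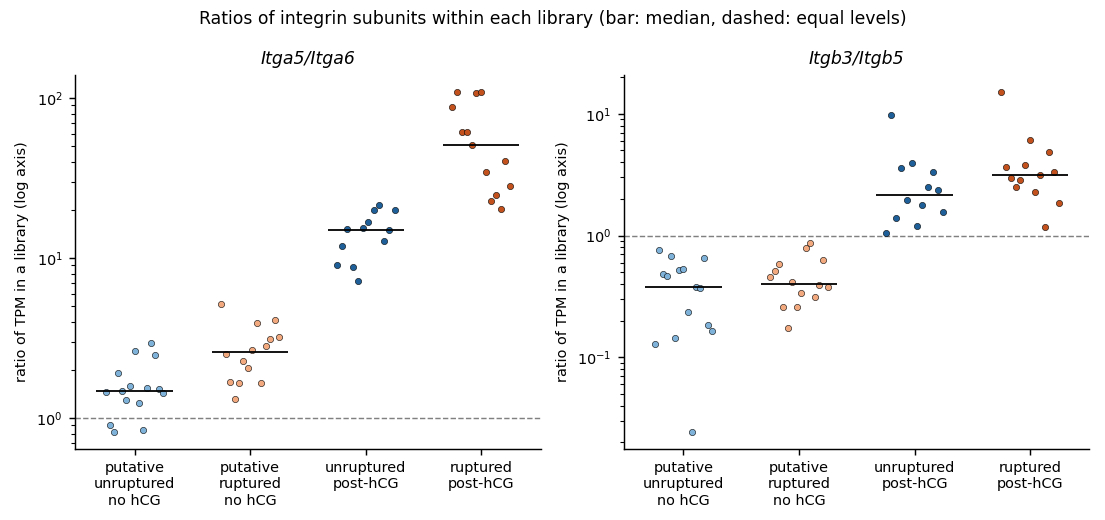
Points are libraries and bars group medians of the ratio of TPM of 2 subunits within a library, on a log axis, with the dashed line at equal levels. Itgb3/Itgb5 lies between 0.0245 and 0.873 without hCG and between 1.05 and 15.25 post-hCG, and Itga5/Itga6 rises to a median of 50.7 on the ruptured side.

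Itgb1 (chr8:128685654-128733200, plus strand) encodes beta1, the partner of all alpha members described here. It was at 172.7 TPM on the putative unruptured side (133.9 to 225.5) and 112.3 TPM on the putative ruptured side (38.3 to 186.1), and 9 of 14 putative ruptured sides lay below every putative unruptured side. Itgb1 was 1.60-fold lower on the putative ruptured side (-0.68 ± 0.17, FDR 0.0041). The putative ruptured sides differed by row letter. In row H, with 9 putative ruptured sides, its median was 88.1 TPM (38.3 to 141.6), and in row G the 5 putative ruptured sides had 161.9 TPM (108.8 to 186.1) against 154.8 TPM (137.3 to 210.5) in the 5 putative unruptured sides. The difference within row G was -0.25 ± 0.17 (FDR 0.685).
Post-hCG, Itgb1 was at 144.4 TPM on the unruptured side (79.57 to 183.4) and 121.3 TPM on the ruptured side (95.67 to 171.2), with overlapping ranges. The log2 fold change was 0.02 ± 0.11 (FDR 0.94, 95% interval -0.21 to 0.24), and its sign turned with library totals alone (-0.12), on log2(TPM + 1) (-0.20) and in row C alone (-0.07). Between media, the ruptured side differed by 0.41 ± 0.16 (1.33-fold higher post-hCG, FDR 0.0327). That call was lost with library totals alone (0.06, FDR 0.789), on log2(TPM + 1) (0.30, FDR 0.214) and without putative ruptured replicate 7, 12 or 14 (highest FDR 0.0587). On the unruptured side the difference of -0.29 ± 0.13 did not pass the test (FDR 0.0549), and library totals alone gave -0.51 (FDR 0.000194). Leaving out putative unruptured replicate 1, 2, 9, 11 or 14 or unruptured post-hCG replicate 9 also put it past the threshold, with a lowest FDR of 0.0228.

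**Figure D5:**
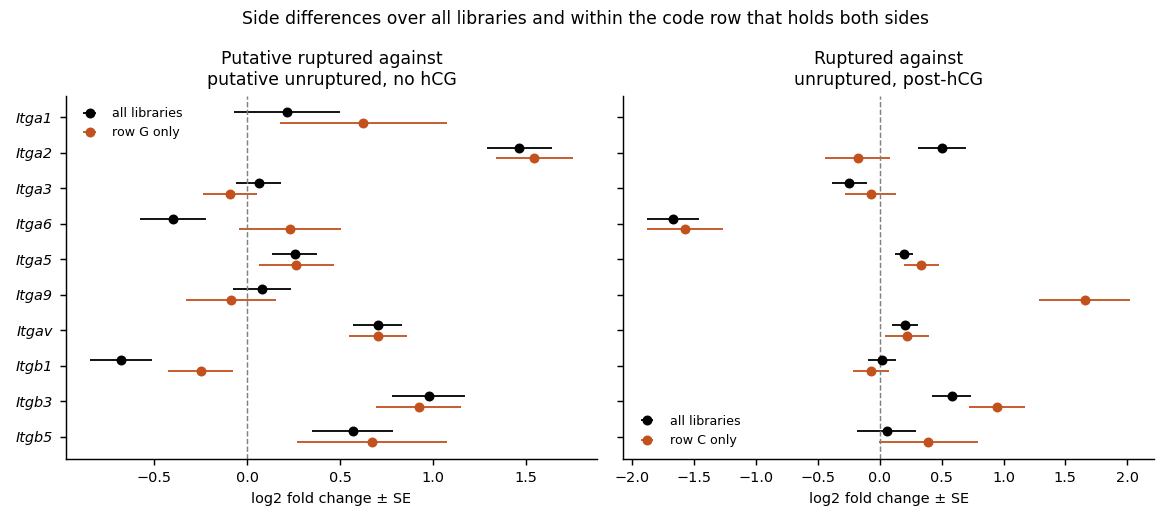
Points are log2 fold changes between sides with their SE from edgeR over all libraries (black) and within the row letter that holds both sides (orange; G without hCG, C post-hCG). Itga2, Itgav and Itgb3 without hCG have like values in both, Itgb1 moves from -0.68 to -0.25, and Itga9 post-hCG is given within row C only, at 1.66.

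A test of the interaction asked whether the side difference itself differed between media. It called 1 member higher, where 4.25% of the 10013 genes tested were called higher, and 2 lower, where 4.65% were called lower. The side difference of Itga6 was 1.27 log2 units lower post-hCG than without hCG (-1.27 ± 0.30, FDR 0.00356), and that of Itga2 was 0.95 lower (-0.95 ± 0.27, FDR 0.0181). For Itgb1 it was 0.70 higher (0.70 ± 0.21, FDR 0.026). On log2(TPM + 1) none of the 3 passed with limma (-0.57, -0.51 and 0.56, lowest FDR 0.129), and with library totals alone Itgb1 did not (0.57, FDR 0.0772). The interaction was not fitted within rows. In row G without hCG and row C post-hCG alone, the side differences of Itgb1 were -0.25 and -0.07. Those of Itga6 were 0.23 and -1.57, and those of Itga2 were 1.55 and -0.18. For Itgb3 the change in the side difference was -0.39 ± 0.25 (FDR 0.378) and for Itgav -0.49 ± 0.18 (FDR 0.0634).

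The remaining 17 integrin subunits had medians of 1.38 TPM or less in every group. In 3 of them, Itga7, Itga11 and Itgb8, a comparison could be tested. Itgb8, a beta subunit that pairs with alphav, fell on the unruptured side from a median of 0.64 to 0.16 TPM (log2 fold change -1.95 ± 0.29, FDR 8.69e-07), having passed the filter through the libraries without hCG. Post-hCG, Itga7, an alpha subunit for laminin, was at 1.38 TPM (0.68 to 2.75) on the unruptured side. On the ruptured side it was at 0.86 TPM (0.41 to 1.44), and that difference did not pass the test (-0.51 ± 0.20, FDR 0.072). Without hCG, Itga7 medians were 0.19 TPM on the putative unruptured and 0.15 TPM on the putative ruptured side. Itga11 had medians of 0.38, 0.2, 0.845 and 0.29 TPM on the putative unruptured, putative ruptured, unruptured and ruptured sides. Neither Itga7 nor Itga11 passed the filter between media.

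Genes of the matrix that integrins bind were taken from a list of 35. Between sides, 8.84% of all genes tested were called higher and 8.96% lower without hCG, and 10% and 11.3% post-hCG, as for the lists that follow. Without hCG, 2 of the 30 tested ligand genes were higher on the putative ruptured side, Vcan (38.1 against 22.5 TPM, log2 fold change 1.00 ± 0.13) and Lamb2 (0.54 ± 0.14), and 14 were lower, led by Col3a1 (17.1 against 380.7 TPM, -2.44 ± 0.77) and Col1a2 (-2.01 ± 0.64). Vcan encodes the proteoglycan versican, and the collagens are also on the list of theca and stroma markers. Post-hCG, 6 of 26 were higher and 12 lower on the ruptured side, with Col3a1 at 3.67 against 246.8 TPM (-4.94 ± 0.63). The median log2 fold change of the tested list genes was -0.72 without hCG and -0.47 post-hCG, against -0.01 and 0.01 over all genes.
Between media, 11 of 30 ligand genes rose and 11 fell on the unruptured side, and 14 of 26 rose and 9 fell on the ruptured side, beside 25.4% and 27.7% of all genes tested on the unruptured side and 29.7% and 30.4% on the ruptured side. Spp1, which encodes osteopontin, rose from a median of 1851 to 19390 TPM on the unruptured side (3.08 ± 0.36) and from 1120 to 23730 TPM on the ruptured side (3.94 ± 0.37). Vcam1, a ligand of alpha4 and alpha9 integrins, fell from 122.6 to 2.72 TPM (-5.40 ± 0.46) and from 70.2 to 0.2 TPM (-8.47 ± 0.47). Thbs1, which encodes thrombospondin 1, fell as well (-3.61 ± 0.58 and -7.11 ± 0.42). All of these passed an edgeR FDR of 0.05.

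Of 40 genes for adaptors and signaling at adhesions, 1 of 33 tested was higher (Nedd9, 0.50 ± 0.12) and 10 were lower on the putative ruptured side, led by the tensins Tns3 (-0.91 ± 0.24) and Tns1 (-0.70 ± 0.21). Post-hCG, 2 of 34 were higher on the ruptured side, the parvin Parvb (8.3 against 3.78 TPM, 1.00 ± 0.18) and the kinase Ptk2b (0.43 ± 0.12), and 7 were lower, with Tns2 (-0.82 ± 0.21) and Dock1 (-0.58 ± 0.19) furthest. Ptk2b, a relative of focal adhesion kinase, rose with hCG from 1.8 to 26.05 TPM on the unruptured side (3.81 ± 0.16) and from 1.96 to 29.8 TPM on the ruptured side (4.04 ± 0.15). Between media 10 of 33 list genes rose and 8 fell on the unruptured side, and 17 of 31 rose and 5 fell on the ruptured side, beside the same shares of all genes (25.4% and 27.7%, then 29.7% and 30.4%), to which the counts on the unruptured side were near. Flna, encoding the actin crosslinker filamin A, fell on both (-0.62 ± 0.11 and -0.75 ± 0.12).

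Of 14 membrane proteins that associate with integrins, 13 were tested in each comparison. Slc3a2, the heavy chain of amino acid transporters that binds beta subunits, was higher on the putative ruptured side (147.7 against 102.5 TPM, 0.73 ± 0.20) and on the ruptured side post-hCG (716.2 against 496.2 TPM, 0.73 ± 0.11). The other calls without hCG were 4 lower genes, with Cav1 (-1.01 ± 0.24) and Cd9 (-0.91 ± 0.23) furthest, and post-hCG Sdc1 was higher (0.67 ± 0.14) and 6 genes were lower, led by Emp2 (-0.98 ± 0.15) and Bsg (-0.96 ± 0.11). With hCG, Sdc1, encoding the matrix receptor syndecan 1, rose from 71.1 to 1536 TPM on the unruptured side (4.12 ± 0.28) and from 112.3 to 2203 TPM on the ruptured side (4.01 ± 0.27). Cd44, the hyaluronan receptor, fell on both sides (-1.84 ± 0.22 and -1.80 ± 0.31). In all, 6 of the 13 rose and 5 fell on the unruptured side (25.4% and 27.7% of all genes), and 6 rose and 6 fell on the ruptured side (29.7% and 30.4%).

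Genes most like each member were ranked by Pearson's r of log2(TPM + 1) over the 54 libraries, after the mean of each group was subtracted, among 9887 other genes whose mean TPM was 1 or more. The libraries differ in depth and may differ in RNA content. The part of these in the correlations was not tested, and r is given as a description. Itga5 had the closest likeness, to Akt2 (r = 0.86; 0.70 to 0.90 within the 4 groups). Itgb1 followed with Axl (r = 0.79) and Gnai1 (r = 0.77), and Itgav with Stx5a and Taf4b (r = 0.72 each). Itga6 was most like Ckap4 (r = 0.66) and Nav1 (r = 0.65), and Itgb3 most like Rbm15 (r = 0.65) and Pdlim4 (r = 0.63). For Itga1, at under 1 TPM on average, the highest were Cntln (r = 0.63) and Pdgfrb (r = 0.61). Within the putative unruptured, putative ruptured, unruptured and ruptured sides, r was 0.87, 0.60, 0.34 and 0.26 for Cntln. For Pdgfrb it was 0.80, 0.75, 0.22 and 0.12 in that order. The highest r values of Itga2, Itga3, Itga9 and Itgb5 lay between 0.51 and 0.59. Among the members themselves, Itga5 and Itgb1 (r = 0.48) and Itga5 and Itgav (r = 0.46) were the closest pairs.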

How the data were processed

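The authors made cDNA of each follicle side with Smart-Seq2, aligned reads to GRCm38 with HISAT2 and corrected counts for batches with ComBat-seq. The deposited estimated counts include fractions (72.2% of non-zero values were whole) and were rounded for testing. The deposited TPM values were scaled by the authors per transcript length. The counting program, annotation and batches, and whether the tables precede batch correction, are not given in the sources used here, and reads of overlapping genes cannot be separated. No column was left unmatched (0).

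Tests used the quasi-likelihood F-test of edgeR 4.0.16 (R 4.3.3) with TMM scaling and its filter on low counts (at least 10 counts, at least 15 in total; Benjamini-Hochberg FDR of 0.05 over all genes), each comparison on its own groups and the interaction on all. SE is the log2 fold change divided by the root of F. Simulated data were used to test the script. Alternatives were DESeq2 1.42.0, RLE factors, library totals, no filter, all groups in one fit, limma 3.58.1 on log2(TPM + 1), a replicate block, wells of a shared row, and refits without each library. Members and lists were chosen with earlier results of these data known. All 10 members are named in each comparison. From each further list the 2 genes with the largest difference per direction past the FDR and with at least 1 CPM in the higher group were eligible to be named. Markers were 8 granulosa, 8 theca and stroma, 7 smooth muscle, 7 endothelial, 7 immune, 5 platelet, 8 oocyte, 5 cumulus expansion and 6 surface epithelium genes. Positions come from GENCODE vM21 (GRCm38). The single-cell data and images of the study were not analysed here.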

Additional observations from a re-analysis of the deposited data

Results flagged for a closer look

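The difference between sides changed with the medium for 3 of the 10 members, by the interaction term of edgeR fitted on all 4 groups, which called 4.25% of 10013 genes tested higher and 4.65% lower. The change, post-hCG minus without hCG, was -0.95 ± 0.27 (SE, FDR 0.0181) on the log2 scale for Itga2, -1.27 ± 0.30 (FDR 0.00356) for Itga6 and 0.70 ± 0.21 (FDR 0.026) for Itgb1. With limma on log2(TPM + 1) none of the 3 passed (lowest FDR 0.129), and with library totals alone Itgb1 did not (FDR 0.0772). Within row G without hCG and row C post-hCG alone, the side differences were 1.55 and -0.18 for Itga2. They were 0.23 and -1.57 for Itga6 and -0.25 and -0.07 for Itgb1. Groups here hold 12 to 15 libraries. The interaction was not refitted without single libraries, unlike the comparisons of sides and of media.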

How the results depend on the processing

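Of the alternatives for single members, 300 values kept their direction and their side of the threshold, 13 lost a call, 9 gained one and 15 changed sign. The number of members called between the sides without hCG went from 4 to 1 within row G, between the sides post-hCG from 2 to 1 with library totals and with limma on log2(TPM + 1), and for the interaction from 3 to 0 with limma. It stayed within 1.5 times of the reported number under every other alternative. Without a single library it ranged from 4 to 5, 2 to 3, 8 to 9 and 6 to 7 in the comparisons of sides without hCG, sides post-hCG, media on the unruptured side and media on the ruptured side. Signs turned with limma for Itga3 (-0.06) between the sides without hCG, for Itga5 (-0.088), Itgav (-0.02), Itgb1 (-0.20) and Itgb5 (-0.13) between the sides post-hCG, and for Itgav (-0.028) between media on the unruptured side. With library totals they turned for Itgb1 (-0.12) and Itgb5 (-0.091) between the sides post-hCG and for Itga3 (-0.20) between media on the ruptured side. Within a row they turned for Itga3 (-0.093), Itga6 (0.231) and Itga9 (-0.087) without hCG and for Itga2 (-0.18) and Itgb1 (-0.074) post-hCG. The cause was not tested, and a row holds fewer libraries. Over all genes, calls (higher and lower) between the sides without hCG were 801 and 812, against 585 and 905 with library totals, 428 and 566 with limma and 3 and 0 within row G. Between the sides post-hCG they were 862 and 971, against 397 and 1830, 202 and 2090, and 294 and 454 within row C. Between media on the unruptured side they were 2365 and 2582, against 1455 and 3844 with library totals and 2097 and 1615 with limma, on the ruptured side 2532 and 2597, against 1376 and 4242 with library totals and 1456 and 2796 with limma, and for the interaction 426 and 466, against 230 and 660, and 86 and 693. Median CPM placed the highest group as TPM did for 9 of the 10 members.

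Deviations of same-numbered libraries correlated above 0.1 in 2 of 14, 3 of 12, 1 of 12 and 3 of 13 pairs, in the order above. The highest r was 0.39, between the sides without hCG. Such correlations cannot decide whether a replicate number marks a shared follicle or animal, since sides of 1 follicle need not deviate alike. With the replicate block, members called numbered 5, 3, 8 and 7, and 4 for the interaction. Under it Itgb5 without hCG (0.78, FDR 0.0159), Itga2 post-hCG (0.52, FDR 0.0306) and Itgav in the interaction (-0.51, FDR 0.0366) passed, and Itgb5 post-hCG turned sign (-0.009).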

Other observations

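Other marker lists had the following sums. Smooth muscle markers, 7 genes, had median sums of 34.7, 5.43, 4.54 and 2.45 TPM in the order putative unruptured, putative ruptured, unruptured and ruptured (up to 66.4 TPM in a library of the putative unruptured side), endothelial markers 8.48, 4.70, 11.8 and 5.44 TPM, and immune markers 2.01, 0.44, 1.74 and 0.65 TPM. Cumulus expansion markers, 5 genes, had median sums of 8.95, 10.9, 34.3 and 25.6 TPM. Surface epithelium markers, 6 genes, had medians of 0.73 TPM or less in every group and reached 54.1 TPM in 1 library of the putative unruptured side.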
